A study of Rattus norvegicus with 7 samples.

Results

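Genes for glutamate, GABA, glycine, acetylcholine, noradrenaline, dopamine and serotonin receptors were described in rat oligodendrocyte progenitors in culture, the cells that become the myelin-forming oligodendrocytes of brain and spinal cord. The genes were taken by symbol (families Gria, Grik, Grin, Grid, Grm, Gabr, Gabbr, Glra, Glrb, Chrm, Chrn, Adra, Adrb, Drd and Htr), which gave 101 of the 32852 genes in the table. Of these, 81 had a mean normalised count of at least 10 and were tested, among 18225 genes tested in all. One of them encodes a partner protein of a receptor and no receptor. Gria2 and Chrm3, which stand for the set, had reads in all 7 libraries. Both groups came from wild-type rat brain at postnatal day 7. Isolated progenitors were transfected with Lipofectamine RNAiMAX and moved to differentiating medium at the same time, where they stayed 4 to 5 days. The 4 control libraries received a control siRNA. The 3 siRNLTR12-int libraries received an siRNA that targets RNLTR12-int, a retrovirus-derived element in the DNA of the rat. The level of RNLTR12-int was not analysed here, so the knockdown was not checked. The labels call the libraries biological replicates without naming an animal or culture day, so the p-values measure a spread that may in part be technical.

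Transmitter receptors fall into ion channels that open on binding and G protein-coupled receptors that act through second messengers. AMPA, kainate and NMDA receptors are cation channels opened by glutamate, GABA-A and glycine receptors are chloride channels, and nicotinic receptors are cation channels opened by acetylcholine. Oligodendrocyte progenitors are known to receive synaptic contacts from neurons, to carry AMPA and GABA-A receptors, and to respond to acetylcholine through muscarinic receptors, which are known to hold back their differentiation.

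The libraries held 22523873 to 61803693 recovered reads. Control replicates 1 and 2 and siRNLTR12-int replicate 1 stood apart from the other 4 libraries in astrocyte content: the summed normalised counts of 10 astrocyte markers, Gfap among them, were 449386 to 531905 in these 3 libraries and 82630.0 to 117308 in the others. Microglia markers (10 in the table) followed the same split, at 3610.1 to 10772 against 1093 to 1487. The summed counts of progenitor markers (8 in the table, Pdgfra and Cspg4 among them) went the other way, at 264855 to 277007 against 355778 to 442018. Single counts of the astrocyte markers Fgfr3 and Gjb6 and the microglia marker P2ry12 overlapped across the split. So did those of the progenitor markers Ptprz1, Sox10 and Cspg5. The neuron markers (11 in the table) had a sum of 4259.9 to 8305 in controls and 3945 to 7521 after the siRNA. By the split, the sum was 3945 to 8305 in the 3 libraries and 7377 to 7619 in the others. Rbfox3, Snap25, Syt1, Nefm and Elavl4 were lowest in the 3 libraries, Stmn2 was highest there, and the other neuron markers overlapped. The highest counts of neuron markers in any library ran from 8.71 for the glutamatergic neuron marker Slc17a6 to 3146 for Elavl3, with 83.8 for Slc17a7. Myelin markers were lower after the siRNA, where the sum over 11 genes was 76582 to 96665 against 206593 to 999507 in controls, highest in control replicate 2. In such bulk libraries fewer cells of a type and less RNA per cell cannot be told apart.

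The serotonin receptor genes Htr6 and Htr2a were the receptor genes that rose after the siRNA in the authors' deposited table (DESeq2), and no receptor gene fell there. Both were low in controls and higher in every siRNLTR12-int library than in any control. Htr6 (ENSRNOG00000049761) encodes a receptor that raises cyclic AMP, and Htr2a (ENSRNOG00000010063) one that acts through phospholipase C and calcium. Of the 86 receptor genes with an adjusted p in the authors' deposited table, 2 passed, against 0.752% of all genes (DESeq2). With limma, the test used here, 0 receptor genes passed, as 0 of the 18225 genes did, where 1149 had an unadjusted p under 0.05. The quasi-likelihood test of edgeR also called 0 genes, with 1165 at an unadjusted p under 0.05. DESeq2 run on the recovered reads called 141, as many as the authors' deposited table.

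Htr6 had 141, 71.1, 156 and 149 in control replicates 1 to 4, against 342, 387 and 399 in replicates 1 to 3 of siRNLTR12-int (normalised counts). The siRNLTR12-int libraries lay close together, and the lowest of them had more than 2 times the count of the highest control. The control mean was 129 ± 39.2 (SD, n = 4), the siRNLTR12-int mean was 376 ± 30.3 (SD, n = 3), and the log2 difference was 1.59 with a standard error of 0.29 (limma adjusted p = 0.647). In the authors' deposited table Htr6 rose by 1.55 on the log2 scale (DESeq2 adjusted p = 0.000885).

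Htr2a had 32.5, 6.53, 32.8 and 16.0 in control replicates 1 to 4, against 105, 123 and 166 in replicates 1 to 3 of siRNLTR12-int. Control replicate 2 was lowest, and the groups did not overlap. The means were 21.9 ± 12.9 (SD, n = 4) and 131 ± 31.4 (SD, n = 3), from 508 recovered reads in all, and the log2 difference was 2.74 with a standard error of 0.56 (limma adjusted p = 0.647). In the authors' deposited table it rose by 2.58 (DESeq2 adjusted p = 0.00209).

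Htr5b (ENSRNOG00000002549), a less studied member of the family, had 94.7, 63.1, 106 and 94.0 in the controls and 137, 184 and 134 after the siRNA. All 3 siRNLTR12-int libraries again lay above all controls, by a smaller margin, and the log2 difference was 0.76 with a standard error of 0.24 (limma adjusted p = 0.701). With siRNA groups that do not overlap, these 3 genes could not separate the libraries along the split in astrocyte markers. A positive log2 difference on each side of the split follows from this as well. Among the 4 libraries with few astrocyte markers, the log2 differences were 1.36 for Htr6, 2.59 for Htr2a and 0.65 for Htr5b. In the other 3 libraries, with a single siRNLTR12-int library, they were 1.76, 2.74 and 0.82.

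Promoters of the serotonin receptor genes Htr6 and Htr5b are shown because the genes were higher in the same 3 libraries. Htr2a was also higher there, but no promoter was found for it. The sequences are from RefSeq (build GRCr8, another build than the Rnor_6.0 of the deposited tables) and cover the 250 bases before the annotated start. A promoter was found for 72 of the 101 receptor genes, among them Htr6 (chr5:156595148-156595397, minus strand) and Htr5b (chr13:35252587-35252836, minus strand). Capitals mark matches on either strand to the GC box (GGGCGG), the CCAAT box (CCAAT), the TATA box (TATAAA), the AP-1 site (TGANTCA) and the cAMP response element (TGACGTCA).
Htr6: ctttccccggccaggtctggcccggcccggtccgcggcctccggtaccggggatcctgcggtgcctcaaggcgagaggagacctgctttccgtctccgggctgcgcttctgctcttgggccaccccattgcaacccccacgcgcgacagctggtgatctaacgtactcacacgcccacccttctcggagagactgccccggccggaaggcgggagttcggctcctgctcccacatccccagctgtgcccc
Htr5b: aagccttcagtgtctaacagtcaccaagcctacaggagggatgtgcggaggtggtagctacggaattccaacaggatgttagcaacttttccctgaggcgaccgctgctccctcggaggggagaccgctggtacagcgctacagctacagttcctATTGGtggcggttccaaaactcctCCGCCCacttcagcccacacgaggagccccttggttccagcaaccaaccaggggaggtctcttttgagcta
The Htr6 window held none of the motifs and was rich in G and C (69.2%), with 22 CG pairs against a median of 5 over all 33469 promoters. The Htr5b window held a CCAAT box and a GC box, both on the opposite strand and starting 95 and 71 bases before the start, and 10 CG pairs at 56.8% G and C. Of all promoters of this length, 30.5% held a GC box, 34.0% a CCAAT box, 12.9% a TATA box, 6.34% an AP-1 site and 1.59% the cAMP response element. The matches are a description of these letters.

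**Figure D1:**
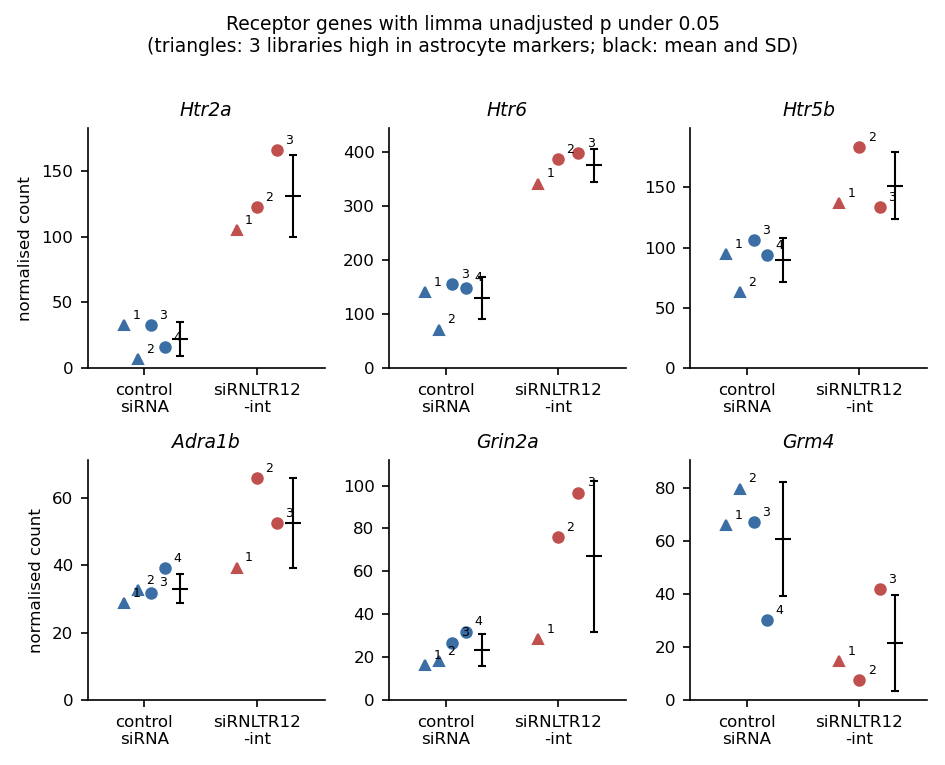
Normalised count (vertical axis) by siRNA group for the 6 receptor genes with a limma unadjusted p under 0.05. Each point is 1 library with its replicate number, triangles mark the 3 libraries high in astrocyte markers, and black bars give the mean and SD (n = 4 and n = 3). Htr2a, Htr6, Htr5b and Adra1b are separated between the groups, and Grin2a and Grm4 overlap.

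Outside the serotonin family, 3 further receptor genes had an unadjusted p under 0.05. Adra1b, an alpha-1 adrenergic receptor, had 28.7, 32.7, 31.9 and 39.0 in the controls and 39.3, 65.8 and 52.4 after the siRNA. The lowest siRNLTR12-int library was just above the highest control, and the log2 difference was 0.63 with a standard error of 0.26 (limma adjusted p = 0.784). Grin2a, an NMDA receptor subunit that is known to increase as the brain matures, had 16.3, 18.1, 26.7 and 31.9 in the controls and 28.3, 76.0 and 96.7 after the siRNA. Only siRNLTR12-int replicates 2 and 3 stood above all controls, and the log2 difference was 1.37 with a standard error of 0.48 (limma adjusted p = 0.712). Grm4, a presynaptic type of metabotropic glutamate receptor, had 66.0, 79.8, 67.2 and 30.2 in the controls and 14.6, 7.60 and 41.9 after the siRNA. It was the single one of the 6 with a negative difference, its siRNLTR12-int replicate 3 lay above control replicate 4, and the log2 difference was -1.70 with a standard error of 0.60 (limma adjusted p = 0.712). Gabrp, the pi subunit of the GABA-A receptor, was lower in all 3 siRNLTR12-int libraries, with 26.8, 38.5, 23.3 and 19.5 in the controls and 18.3, 15.2 and 15.3 after the siRNA. Its counts rest on few reads (170 in all libraries), and the log2 difference was -0.66 with a standard error of 0.31 (limma adjusted p = 0.832).

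Over the whole set, 5 receptor genes were higher and 1 was lower at an unadjusted p under 0.05 with limma, which is 7.41% of the 81 tested against 6.30% of all genes tested (3.33% higher and 2.98% lower). The groups did not overlap in 4 genes that were higher and 1 that was lower, 6.17% against 7.68% of all genes (4.09% higher and 3.59% lower). Both shares are near those of all genes. The median log2 difference of the 81 genes was 0.03, against 0.01 over all genes, with 44 positive and 37 negative, where 51.0% of all genes were positive. By class, the median was 0.81 in the 6 serotonin receptors tested (5 positive), 0.36 in the 4 AMPA subunits and in the 7 adrenergic receptors, and -0.44 in the 3 dopamine receptors (all negative). It lay from -0.14 to 0.09 in the other 9 classes. The count moved with single libraries. Without control replicate 2, 3 receptor genes had an unadjusted p under 0.05 (3.66%, against 4.89% of all genes), and without siRNLTR12-int replicate 2 there were also 3 (3.66%, against 2.71%). Without control replicate 1 there were 10 (12.5%, against 9.32%), and without siRNLTR12-int replicate 1 there were 12 (14.6%, against 13.0%).

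**Figure D2:**
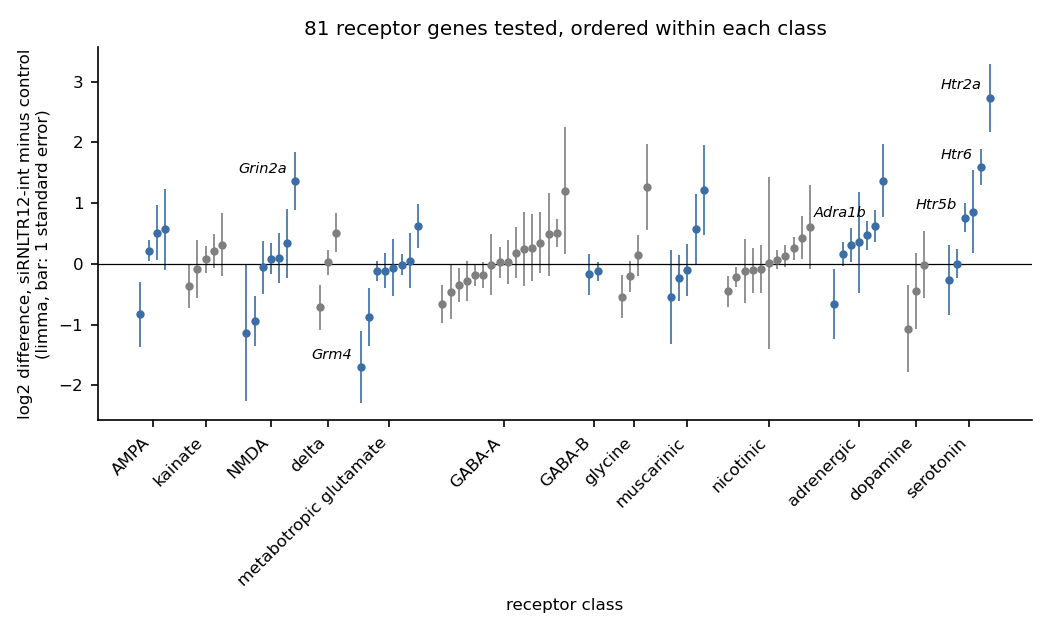
Log2 difference of siRNLTR12-int minus control (vertical axis, limma, bars of 1 standard error) for the 81 receptor genes tested, by receptor class and ordered within it. Htr2a and Htr6 lie above all other receptor genes, and Grm4 lies lowest.

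The AMPA receptor subunits, all 4 of them, separated the 3 libraries high in astrocyte markers from the other 4, with Gria1 opposite in direction to Gria2, Gria3 and Gria4. Gria2, the subunit that makes the channel nearly impermeable to calcium once its transcript is edited, had 13019, 14673, 18626 and 16889 in control replicates 1 to 4, against 14768, 20485 and 20014 in replicates 1 to 3 of siRNLTR12-int. Control replicates 1 and 2 and siRNLTR12-int replicate 1 were the 3 lowest, and the log2 difference was 0.22 with a standard error of 0.17 (limma adjusted p = 0.935). Gria3 had 2694, 3321, 6969 and 6789 in the controls and 3685, 8618 and 8501 after the siRNA. Its 3 lowest libraries were the same, at 0.419 times the mean of the other 4. Gria4 showed the same order more strongly, with 950.2, 1456, 3854 and 3317 in the controls and 1198, 5015 and 4703 after the siRNA, a ratio of 0.285. Gria1 was reversed, with 860.2, 1218, 293 and 364 in the controls and 479.6, 237 and 304 after the siRNA, and the same 3 libraries were its highest, at 2.85 times the others. Over all 7 libraries the siRNA groups overlapped in all 4 AMPA genes. On each side of the split, Gria2 and Gria3 were higher in every siRNLTR12-int library than in every control. The same held for receptor genes of other classes, Chrm3, Grm5, Gabra4 and Adrb1 among them, so it is no trait of AMPA subunits. How many genes of the whole series are ordered in this way was not counted, so it is not read as a result. With the split as a block, the log2 difference was 0.15 for Gria2 and 0.31 for Gria3 (limma adjusted p = 0.439 and 0.225).

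**Figure D3:**
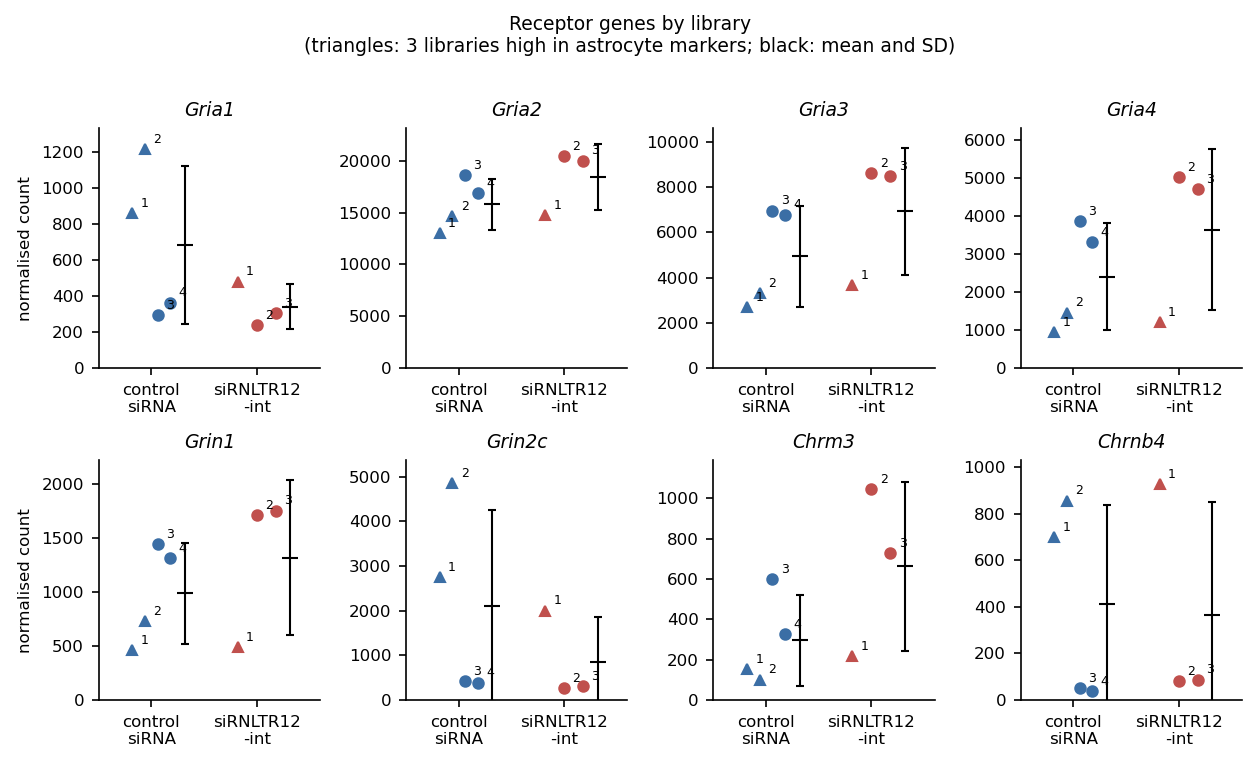
Normalised count (vertical axis) by siRNA group for 8 receptor genes, with 1 point per library, its replicate number, triangles for the 3 libraries high in astrocyte markers and black bars for the mean and SD, which are not drawn below 0. The triangles lie above the circles in Gria1, Grin2c and Chrnb4 and below them in Gria2, Gria3, Gria4, Grin1 and Chrm3, in both siRNA groups.

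Kainate receptor genes were all detected. Grik5, a subunit that needs a partner to form a channel, had 6050.2, 7169, 9242 and 8801 in the controls and 5936, 9695 and 9369.6 after the siRNA, and Grik3 had 1366, 2353, 3860.3 and 5115 in the controls and 1648, 3485 and 3288 after the siRNA. Grik4, which also needs a partner, had 1016, 1393, 1756 and 1598 in the controls and 1077, 2004 and 2014 after the siRNA. In Grik3, Grik4 and Grik5 the 3 libraries high in astrocyte markers were again lowest. Grik2, one of the subunits that form channels on their own, had 1702, 4329, 3229 and 3769.8 in the controls and 1579, 2982 and 2913 after the siRNA, with control replicate 2 highest. Grik1 was low, between 27.7 and 90.7 normalised counts. No kainate gene had an unadjusted p under 0.05.

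Among NMDA receptor genes, Grin1, the subunit present in every NMDA receptor, had 466, 734, 1445 and 1318 in the controls and 493, 1713 and 1756 after the siRNA. The 3 libraries high in astrocyte markers held 0.362 times the mean of the others. Grin2c, a subunit known from astrocytes and cerebellar granule cells, went the other way, with 2759, 4857, 422 and 389 in the controls and 2001, 269.6 and 316 after the siRNA, a ratio of 9.18. Grin3a and Grin2d followed Grin1 (0.513 and 0.561), while Grin2b, with means of 495 ± 159.8 (SD, n = 4) and 512 ± 82.2 (SD, n = 3), showed no such separation. Grin3b had 356, 417, 359 and 772 in the controls and 433, 166 and 178 after the siRNA. Control replicate 4 was highest, siRNLTR12-int replicates 2 and 3 were lowest, and the log2 difference was -0.94 with a standard error of 0.42 (limma adjusted p = 0.8).

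The delta receptor gene Grid1 had 1106, 1512, 1689 and 1841 in the controls and 1213, 1762 and 1696 after the siRNA, with overlapping groups. Metabotropic glutamate receptors act through G proteins, where Grm5 couples to phospholipase C and Grm2, Grm3, Grm4, Grm6, Grm7 and Grm8 lower cyclic AMP. Grm5 had 5288, 2935, 2661 and 1953 in the controls and 6913, 3784 and 3826 after the siRNA. Its highest values were in control replicate 1 and siRNLTR12-int replicate 1, and the log2 difference was 0.63 with a standard error of 0.36 (limma adjusted p = 0.887). Grm6 had 506, 375, 502 and 383 in the controls and 497, 391 and 419 after the siRNA, an even level. Grm7 had 64.1, 200.3, 60.3 and 60.3 in the controls and 36.5, 40.5 and 60.4 after the siRNA, where control replicate 2 stood far above the rest, and the log2 difference was -0.87 with a standard error of 0.47 (limma adjusted p = 0.864). Grm2, Grm3 and Grm8 had means of 12.6 to 351 over the 7 libraries, with overlapping groups.

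Of the 16 GABA-A receptor genes tested, 3 were highest and 2 lowest in the 3 libraries high in astrocyte markers, 31.2% against 35.8% of all genes. Gabrg1, a gamma subunit found in glia, had 2117, 3024, 1542 and 1636 in the controls and 2139, 1358 and 1351 after the siRNA, and Gabra2 had 1634, 1964, 798 and 860.4 in the controls and 1627, 676 and 635 after the siRNA. Both were highest in the 3 libraries high in astrocyte markers, as was Gabrb1 (ratio 1.79). Gabra3 had 93.8, 157, 358 and 252 in the controls and 93.2, 479.8 and 429.6 after the siRNA, lowest in those 3 libraries at 0.302 times the others. Gabra4 had 982, 619.7, 652 and 593 in the controls and 1275, 833 and 919.6 after the siRNA. Each siRNLTR12-int library was above control replicates 2 to 4 while control replicate 1 lay among them, and the log2 difference was 0.51 with a standard error of 0.23 (limma adjusted p = 0.8). A further 9 tested subunits, Gabrp included, had means of 22.4 to 163, and Gabra6, Gabrd and Gabrq were below the minimum. Both subunits of the metabotropic GABA-B receptor were present. Gabbr1 had 13711, 18993, 13016 and 13162 in the controls and 12729.6, 14350.2 and 13145 after the siRNA, and its partner Gabbr2 had 1618, 4563, 2179 and 2377 in the controls and 1754, 2565 and 2391 after the siRNA. The siRNA groups overlapped in both.

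Glycine receptors need an alpha subunit to bind glycine, and the beta subunit Glrb anchors them to the scaffold gephyrin. Glrb had 3879, 9116, 7789 and 10124 in the controls and 3672, 6126 and 5561 after the siRNA. Control replicate 1 and siRNLTR12-int replicate 1 were lowest, and the log2 difference was -0.54 with a standard error of 0.35 (limma adjusted p = 0.906). The alpha subunits were low, with means of 54.7 for Glra2, 32.3 for Glra4 and 10.1 for Glra1, and Glra3 had 1 read in all.

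Chrm3, the muscarinic receptor that acts through phospholipase C and calcium, had 153, 102, 599.9 and 328 in control replicates 1 to 4, against 217, 1046 and 727 in replicates 1 to 3 of siRNLTR12-int. The 3 libraries high in astrocyte markers held 0.233 times the mean of the others, and siRNLTR12-int replicates 2 and 3 were the 2 highest. Over all libraries the log2 difference was 1.22 with a standard error of 0.74 (limma adjusted p = 0.895). Chrm4, which lowers cyclic AMP, had 112, 158, 45.7 and 14.2 in the controls and 52.1, 31.6 and 38.7 after the siRNA, highest in the 3 libraries where Chrm3 was lowest. Chrm1, Chrm2 and Chrm5 had means of 10.7 to 25.6. Of the nicotinic subunits, Chrna7, which forms channels on its own, had 4376, 3229, 4813 and 3439.8 in the controls and 3995, 4314 and 4009 after the siRNA and varied little. Chrna4 had 2278, 2437, 4137 and 3914 in the controls and 2457, 5762 and 5085 after the siRNA, lowest in the 3 libraries high in astrocyte markers, and the log2 difference was 0.43 with a standard error of 0.35 (limma adjusted p = 0.937). Chrnb2, the usual partner of Chrna4, had 213, 373, 267 and 442 in the controls and 229, 213 and 242 after the siRNA, and the log2 difference was -0.45 with a standard error of 0.26 (limma adjusted p = 0.889). Chrnb4 showed the widest split of all receptor genes tested, with 699, 856, 50.9 and 39.0 in the controls and 927, 81.0 and 87.8 after the siRNA. Its mean in the 3 libraries high in astrocyte markers was 12.8 times that in the other 4. The other tested nicotinic subunits (Chrna1, Chrna3, Chrna5, Chrnb1, Chrnb3, Chrnd and Chrne) had means of 11.7 to 239 with overlapping groups, while Chrna2, Chrna6, Chrna9 and Chrna10 were below the minimum mean.

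Adrenergic receptors followed several patterns. Adra2a, which lowers cyclic AMP, had 1603, 1421, 567 and 706 in the controls and 1509, 371 and 423 after the siRNA, highest in the 3 libraries high in astrocyte markers (2.92 times the others), and the log2 difference was -0.66 with a standard error of 0.58 (limma adjusted p = 0.951). Adrb1, a beta receptor that raises cyclic AMP, had 529, 425, 290.5 and 293 in the controls and 575, 527 and 454 after the siRNA, where the siRNLTR12-int range took in control replicate 1, and the log2 difference was 0.47 with a standard error of 0.24 (limma adjusted p = 0.855). Adra1a had 402, 364, 222 and 195 in the controls and 358, 382 and 313 after the siRNA, and the log2 difference was 0.31 with a standard error of 0.28 (limma adjusted p = 0.953). Adra2b and Adra2c had means of 243 and 17.4, and Adra1d and Adrb3 were below the minimum. Dopamine receptors were low. Drd1 had 144, 182, 53.4 and 40.8 in the controls and 118, 53.2 and 41.1 after the siRNA, Drd2 had 31.6, 29.0, 8.62 and 21.3 in the controls and 38.4, 13.9 and 15.3 after the siRNA and Drd3 had 27.7, 40.6, 8.62 and 7.10 in the controls and 15.5, 5.06 and 4.84 after the siRNA, and all 3 were highest in the 3 libraries high in astrocyte markers. Drd4 and Drd5 were below the minimum mean. Of the remaining serotonin receptors, Htr2b had 201, 115, 207 and 170.3 in the controls and 180.0, 153 and 177 after the siRNA, Htr2c and Htr3a had means of 11.3 and 13.1, and 8 were below the minimum.

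The division by astrocyte markers touched 28 of the 81 receptor genes: 17 were lowest and 11 highest in all 3 libraries. This is 34.6% of the set against 35.8% of all genes tested (17.1% lowest and 18.6% highest), so the receptor genes followed the split about as often as genes in general. The split was defined from marker levels in these libraries and carries no test. The part of astrocyte, microglia, progenitor or neuron RNA in it was not tested. In Grin2c, Chrnb4, Drd1 and Drd3 the 3 libraries held 9.18, 12.8, 3.14 and 4.37 times the mean of the others.

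**Figure D4:**
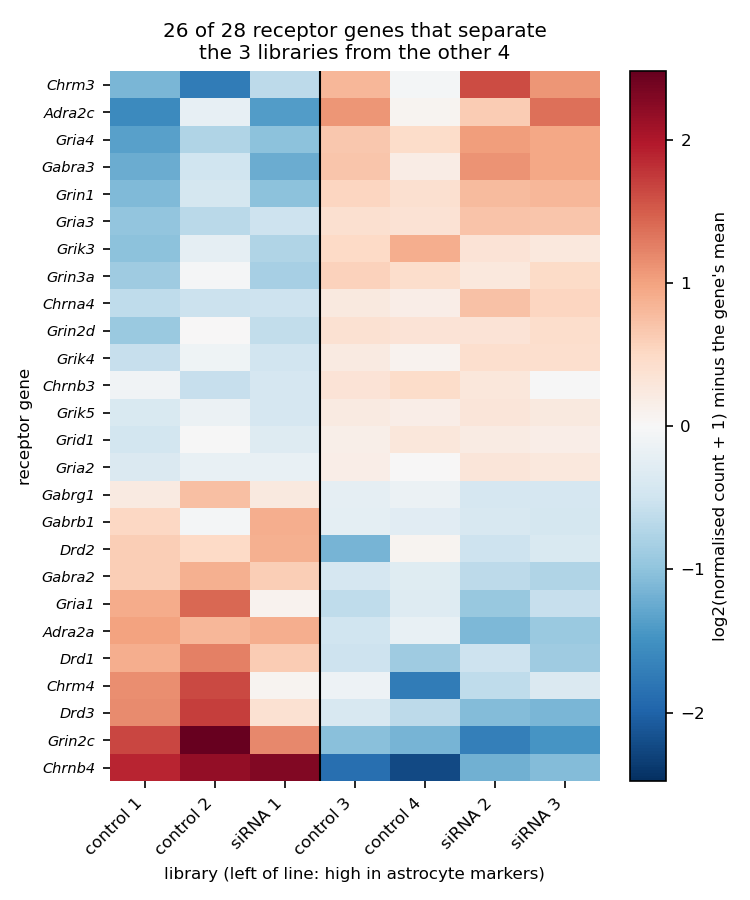
Heat map of log2(normalised count + 1) minus each gene's mean (colour) for 26 of the 28 receptor genes that separate control replicates 1 and 2 and siRNLTR12-int replicate 1 (left of the line) from the other 4 libraries. The upper 15 genes are lower on the left and the lower 11 genes are higher there.

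Within the 4 libraries low in astrocyte markers (2 per siRNA group), a comparison added after the data were seen, more receptor genes differed by siRNA. With limma 36 of 79 tested (45.6%) had an unadjusted p under 0.05, against 24.7% of all genes, 26 of them higher and 10 lower. Past an adjusted p under 0.05 were 15 (19.0%, against 7.88% of all genes), 11 higher and 4 lower. Htr6 (1.36), Htr2a (2.59) and Grin2a (1.52) were among the higher ones on the log2 scale (limma adjusted p = 0.00696, 0.0136 and 0.0257). So were the calcium-linked receptors Grm5 (0.74) and Adra1a (0.73), the beta receptor Adrb1 (0.74), the AMPA subunits Gria3 (0.32) and Gria4 (0.44), and Gabra4 (0.49) and Chrna4 (0.43). Their limma adjusted p ranged from 0.0212 to 0.0411. Grin3b (-1.61), Adra2a (-0.67) and Glrb (-0.61) were among the lower ones (limma adjusted p = 0.032, 0.0383 and 0.0374). Between siRNLTR12-int replicate 1 and control replicates 1 and 2, Grin3b (0.17) and Adra1a (-0.09) went the other way. Adra2a (0.0002), Gria4 (0.03) and Chrna4 (0.06) hardly differed there. The other genes named here kept their direction, Grm5 (0.81) and Glrb (-0.70) among them. With 2 libraries a group the spread is poorly known, and siRNLTR12-int replicates 2 and 3 were the pair of libraries most alike in the series. With all 7 libraries and the split as a block, 21 receptor genes (25.9%) had a limma unadjusted p under 0.05 against 14.0% of all genes, and 0 passed after adjustment.

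Genes that work with these receptors (auxiliary subunits, scaffolds, RNA editing enzymes, transporters, clustering proteins and transmitter enzymes) differed little as a whole. Of 62 tested, 35 had a positive and 27 a negative log2 difference, with a median of 0.01. None passed after adjustment with limma or in the authors' deposited table (DESeq2), and 4 were higher and 1 lower at a limma unadjusted p under 0.05 (8.06%, against 6.30% of all genes). The groups did not overlap in these 5 and in Slc12a2, a chloride carrier that was lower (9.68%, against 7.68% of all genes). Dlg4, the main scaffold of glutamate synapses, had 6086, 6787, 7114 and 6677 in the controls and 7351, 9537 and 9338 after the siRNA, and the log2 difference was 0.38 with a standard error of 0.12 (limma adjusted p = 0.701). Neto2, an auxiliary subunit of kainate receptors, had 1799.8, 1885, 1982 and 1863 in the controls and 2092, 2644 and 2563 after the siRNA, and the log2 difference was 0.36 with a standard error of 0.11 (limma adjusted p = 0.676). Both were highest in siRNLTR12-int replicates 2 and 3. Cacng8, an auxiliary subunit of AMPA receptors, had a log2 difference of 0.64 (limma adjusted p = 0.712). Bche, which breaks down choline esters, was lower, with 1202, 1143, 1033 and 1158 in the controls and 988, 868 and 823 after the siRNA, and the log2 difference was -0.35 with a standard error of 0.11 (limma adjusted p = 0.701).

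The 20 receptor genes below a mean of 10 had 1 to 72 recovered reads each over the 7 libraries, and 12 of them had none in at least 1 library. At this depth a 0 allows up to 3 reads, or 2.18 to 5.32 normalised counts depending on the library, counting error only. Htr1f fell just below the minimum with a mean of 9.95, and Glra1 just above it with 10.1.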

How the data were processed

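Per the labels' protocols, RNA was freed of ribosomal RNA, kept its strand and was read from both ends, in 4 control and 3 siRNLTR12-int libraries. Salmon, DESeq2 and Rnor_6.0 (the rat genome build) are named in the submitters' processing notes, without version numbers. The authors deposited a normalised count per gene and library (a signal: counts divided by 1 size factor per library). Their comparison table gives, per the file headers, the mean signal, the log2 fold change with its standard error, a test score and p-values, unadjusted and adjusted. Dividing by the step of each library returned whole reads for 100% of the values above 0 (tolerance 0.01). No 2 libraries agreed within sampling noise: per gene, the median chi-square of the closest pair was 1.29, where noise alone gives 0.455. How reads shared by related genes were divided was not stated in the labels or file headers, so values of near-identical genes are uncertain.

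Limma 3.58.1 (R 4.3.3, empirical Bayes with a trend, two-sided) was run on log2(normalised count + 1) over the 18225 genes with a mean of at least 10, with Benjamini-Hochberg adjustment over all of them at a threshold of 0.05. Such log2 differences understate the change of low genes. The receptor genes, companion genes, markers and tests were chosen with earlier results of these data known, so no list is independent evidence. Genes were named by a rule: Gria2, Chrm3, the 2 highest members of each class, every member with a limma unadjusted p under 0.05, groups that did not overlap, or a call in the authors' table, and companion genes past such a test. Any other gene was named after its values were seen, and some genes, also some that the rule names, are not reported here. A log2 difference smaller than its standard error is not given gene by gene. Normalised counts are not scaled by gene length, so levels are not compared between genes. Alternatives were pseudocounts of 0.25 and 8, other filters, TMM and upper-quartile rescaling, array weights, a replicate block, each library left out, tests of the recovered reads with edgeR 4.0.16 and DESeq2 1.42.0, and 2 fits by astrocyte markers added later. The limma, edgeR and DESeq2 steps were tested on simulated data. These had the same spread setting for every gene and no split of the libraries, so they cannot show how the tests behave with the split.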

Additional observations from a re-analysis of the deposited data

Results flagged for a closer look

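The gap test of Dixon asked whether 1 control library lay far from the other 3. For normally distributed values chance gives about 1 in 20. The test was run on counts without a log, whose shape was not checked, so that share is no background here. The test flagged 11 of the 81 receptor genes tested, 9 of which are given here. The share over all genes was not computed, so this count is not read as a trait of receptor genes. The outlying library was control replicate 2 in Gabbr1 (18993 normalised counts, where the other controls had 13016 to 13711), Grik1 (90.7, against 27.7 to 36.2), Grm7 (200.3, against 60.3 to 64.1) and Chrm1 (49.3, against 17.2 to 22.0). It was control replicate 1 in Gabra4 (982, against 593 to 652), Grm3 (354, against 169.8 to 193), Glra1 (12.4, against 2.59 to 3.63) and Htr2c (23.9, against 2.59 to 5.81). In Grin3b it was control replicate 4 (772, against 356 to 417). In all 9 the library was the highest control. The sum of myelin markers was also highest in control replicate 2 (999507), and that of microglia markers in control replicate 1 (10772). Their part in these values was not tested.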

How the results depend on the processing

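Of the limma, edgeR and DESeq2 alternatives run, every one kept the direction of each log2 difference over all 7 libraries that is given with a standard error for a named receptor gene. Htr2a ranged from 2.28 to 3.00 and Htr6 from 1.33 to 1.71 on the log2 scale. Both passed an adjusted p under 0.05 with DESeq2, with array weights and in the 4 libraries with few astrocyte markers, and in none of the other alternatives. The DESeq2 run returned the values of the authors' deposited table for both genes, so it repeats that result and adds none. Over all genes, the 0 calls of limma became 141 with DESeq2, 839 with array weights and 1415 in the 4 libraries with few astrocyte markers, and ranged from 0 to 2 with 1 library left out (2 without control replicate 4, 1 without siRNLTR12-int replicate 2). The 6 receptor genes at an unadjusted p under 0.05 (7.41% of those tested, against 6.30% of all genes) became 10 with no filter (9.90% against 5.21%), 3 with a minimum mean of 50 (4.92% against 6.57%), 27 with array weights (33.3% against 24.7%), 13 with the replicate block (16.0% against 8.03%), 11 with DESeq2 (10.9% against 4.40%), 36 in the 4 libraries with few astrocyte markers (45.6% against 24.7%) and 21 with the astrocyte split as a block (25.9% against 14.0%), and ranged from 3 to 12 with 1 library left out. The cause of these shifts was not tested. Whether the replicate numbers pair the libraries was not settled. Same-numbered libraries had correlations of 0.75, -0.19 and 0.63 in their deviations from the group means. Those numbered 1 and 3 lay on the same side of the astrocyte split, and those numbered 2 on opposite sides. These correlations therefore cannot tell pairing from the split. With the replicate block 0 genes passed, as without it. Depth limits the genes with few reads, Htr2a (508 reads in all) and Gabrp (170.0) among those named.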
